A study of Rattus norvegicus with 18 samples.

Results

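The genes described here are the matrix metalloproteinases (Mmp), their tissue inhibitors (Timp), the ADAM proteins and the ADAMTS proteins of the rat. They were taken by gene symbol, as every entry of the gene table whose symbol begins with Mmp, Timp, Adam or Adamts followed by a digit. The rule gave 64 of the 19880 genes in the table, of which 21 were Mmp, 4 Timp, 20 Adam and 19 Adamts genes. Of the 64, 49 had enough counts to be tested and 15 did not.

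All cells were neonatal rat ventricular cardiomyocytes from Sprague-Dawley pups at postnatal day 2, and every group, controls included, received phenylephrine (PE, an alpha-adrenergic agonist that drives cardiomyocyte hypertrophy) at 20 µM for 24 h and an adenovirus. The tested groups carried a virus for 1 of 3 small open reading frames, sORF6, sORF7 or sORF8. Each had its own control virus group, giving 6 groups of 3 libraries. Each sORF group and its control group are called an experiment here, 3 in all. Whether the 3 were run separately is not given in the labels. Non-cardiomyocytes were reduced by letting them attach for 1 h, the remaining cells grew in serum on gelatin, and total RNA was sequenced. The labels do not say that the 3 libraries of a group are separate cultures, so the p-values speak to library-to-library spread alone, and that spread may be technical.

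Matrix metalloproteinases are zinc enzymes, secreted or membrane-bound, that cut collagen, elastin, proteoglycans and signalling proteins, and the TIMPs bind and block their active sites. ADAMs are membrane proteins, some of which release the outer part of other membrane proteins such as TNF and growth factors, a step called shedding. ADAMTS enzymes are secreted and process procollagen or cut proteoglycans such as versican and aggrecan, and in the heart all 4 families are known for their part in remodelling of the extracellular matrix.

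Library totals lay between 15697177 and 17658137 estimated counts. All libraries of the sORF8 experiment had 15697177 to 16283938, and all others had 17299568 to 17658137. The cardiomyocyte markers (8 of 8 in the table, Myh6, Tnnt2 and Actc1 among them) summed to between 39500 and 68100 CPM (counts scaled to library size) and were present in every group, but so were the cardiac fibroblast markers (10 of 10, Col1a1, Dcn and Pdgfra among them), at 7640 to 9390 CPM. Smooth muscle and pericyte markers summed to 2190 to 3120 CPM, and macrophage and leukocyte markers to 116 to 171 CPM. Endothelial markers summed to 54.1 to 70.8 CPM and neutrophil markers to 1.2 to 2.61 CPM. None of these markers was at 0 in all libraries. The cultures therefore held RNA of several cell types, and in bulk RNA fewer cells of a type and less RNA per cell cannot be told apart.

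The promoters of the inducible Mmp genes are shown because Mmp13, Mmp12 and Mmp3 were among the 4 genes with the largest fold changes with sORF6, and Mmp10 is their neighbour in the same gene cluster. The other gene of the 4, Mmp9, had no promoter sequence available and is named only. Adam17, whose change was small, is shown beside them. The sequences are from RefSeq on build GRCr8, 250 bases before to 50 after the start of each gene, 5′ to 3′ in the direction of the gene. Capitals mark the AP-1 motif TGANTCA and the TATA box TATAAA.
Mmp13 (chr8:12782579-12782878, plus strand): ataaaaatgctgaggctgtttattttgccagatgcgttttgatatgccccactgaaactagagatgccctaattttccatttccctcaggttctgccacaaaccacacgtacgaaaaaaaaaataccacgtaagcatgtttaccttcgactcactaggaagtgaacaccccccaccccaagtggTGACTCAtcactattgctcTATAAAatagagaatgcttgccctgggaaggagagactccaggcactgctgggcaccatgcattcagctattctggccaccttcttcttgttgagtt
Mmp12 (chr8:12866402-12866701, plus strand): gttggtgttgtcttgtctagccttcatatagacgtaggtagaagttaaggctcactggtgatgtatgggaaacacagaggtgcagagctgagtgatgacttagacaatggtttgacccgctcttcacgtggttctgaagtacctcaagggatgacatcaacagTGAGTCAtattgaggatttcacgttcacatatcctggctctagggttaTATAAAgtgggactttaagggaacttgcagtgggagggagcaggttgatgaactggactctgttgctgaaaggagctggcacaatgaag
Mmp3 (chr8:12925031-12925330, plus strand): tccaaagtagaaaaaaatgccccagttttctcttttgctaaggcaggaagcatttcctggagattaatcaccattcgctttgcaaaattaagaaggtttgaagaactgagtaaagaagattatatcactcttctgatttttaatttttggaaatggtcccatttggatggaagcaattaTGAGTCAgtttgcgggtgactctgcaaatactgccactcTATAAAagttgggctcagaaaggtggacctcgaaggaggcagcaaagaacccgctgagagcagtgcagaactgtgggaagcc
Mmp10 (chr8:12974457-12974756, plus strand): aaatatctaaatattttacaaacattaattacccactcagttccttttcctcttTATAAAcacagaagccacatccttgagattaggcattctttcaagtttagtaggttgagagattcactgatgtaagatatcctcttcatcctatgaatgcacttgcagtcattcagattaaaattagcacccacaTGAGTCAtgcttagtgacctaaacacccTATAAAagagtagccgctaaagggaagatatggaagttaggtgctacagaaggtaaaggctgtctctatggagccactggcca
Adam17 (chr6:46649295-46649594, minus strand): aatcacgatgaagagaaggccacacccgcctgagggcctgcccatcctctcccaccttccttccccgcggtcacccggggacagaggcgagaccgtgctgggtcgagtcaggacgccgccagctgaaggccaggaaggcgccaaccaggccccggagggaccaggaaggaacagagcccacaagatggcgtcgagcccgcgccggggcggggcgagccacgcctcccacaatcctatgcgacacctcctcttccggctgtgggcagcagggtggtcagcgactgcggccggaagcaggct
Of the 64 genes, 44 had such a sequence. Mmp2, Mmp9, Mmp14 and Mmp16 were among those without one, so no motif could be sought in them. Both strands were searched, and the AP-1 motif stood in 7 of the 44 (Adam19, Mmp1, Mmp3, Mmp7, Mmp10, Mmp12 and Mmp13) and in 7.33% of all 33469 promoters of that length. The TATAAA motif, which overlaps none of the AP-1 matches printed, stood in 12 of the 44 and in 14.2% of all promoters. The interferon-stimulated response element stood only in that of Mmp13 among the 44, and in 3.92% of all. The NF-kB motif stood in those of Adam12, Adamts12 and Mmp25 and in 4.18% of all. The counts among the 44 are by gene, with a match in any promoter of the gene, while the percentages are by promoter, so the units differ. A match says only that these letters are in the window.

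Levels between genes are compared in FPKM, which is per length. In the 9 control libraries Mmp2, a gelatinase, was highest at 174 ± 6.17 FPKM (SD, n = 9), followed by Timp2 at 143 ± 16.2 FPKM and Timp1 at 117 ± 16.6 FPKM. These SDs span 3 experiments, and the order of Timp2 and Timp1 was not the same in each. Timp2 and Timp1 had means of 156 and 106 FPKM in the controls of sORF6 and 150 and 110 FPKM in those of sORF7. In the controls of sORF8 Timp1 was the higher, at 136 ± 13.7 FPKM against 122 ± 2.86 FPKM for Timp2 (SD, n = 3). The ranges of Mmp2 and Timp2 did not overlap, at 165.89 to 183.91 FPKM for Mmp2 and 119.41 to 157.88 FPKM for Timp2. Adam19, a sheddase known for its part in heart development, followed at 71.3 ± 10.1 FPKM. Mmp14, the membrane-type enzyme that activates the Mmp2 precursor, had 61.3 ± 3.24 FPKM, and Timp3, the inhibitor that binds to the matrix, had 35.6 ± 1.91 FPKM. Over all 18 libraries the 5 most abundant genes held 63.2 to 65.4% of the summed FPKM of the families. A mean of at least 10 FPKM was reached by 17 genes, 20 lay between 1 and 10, and 12 tested genes lay under 1 FPKM.

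**Figure D1:**
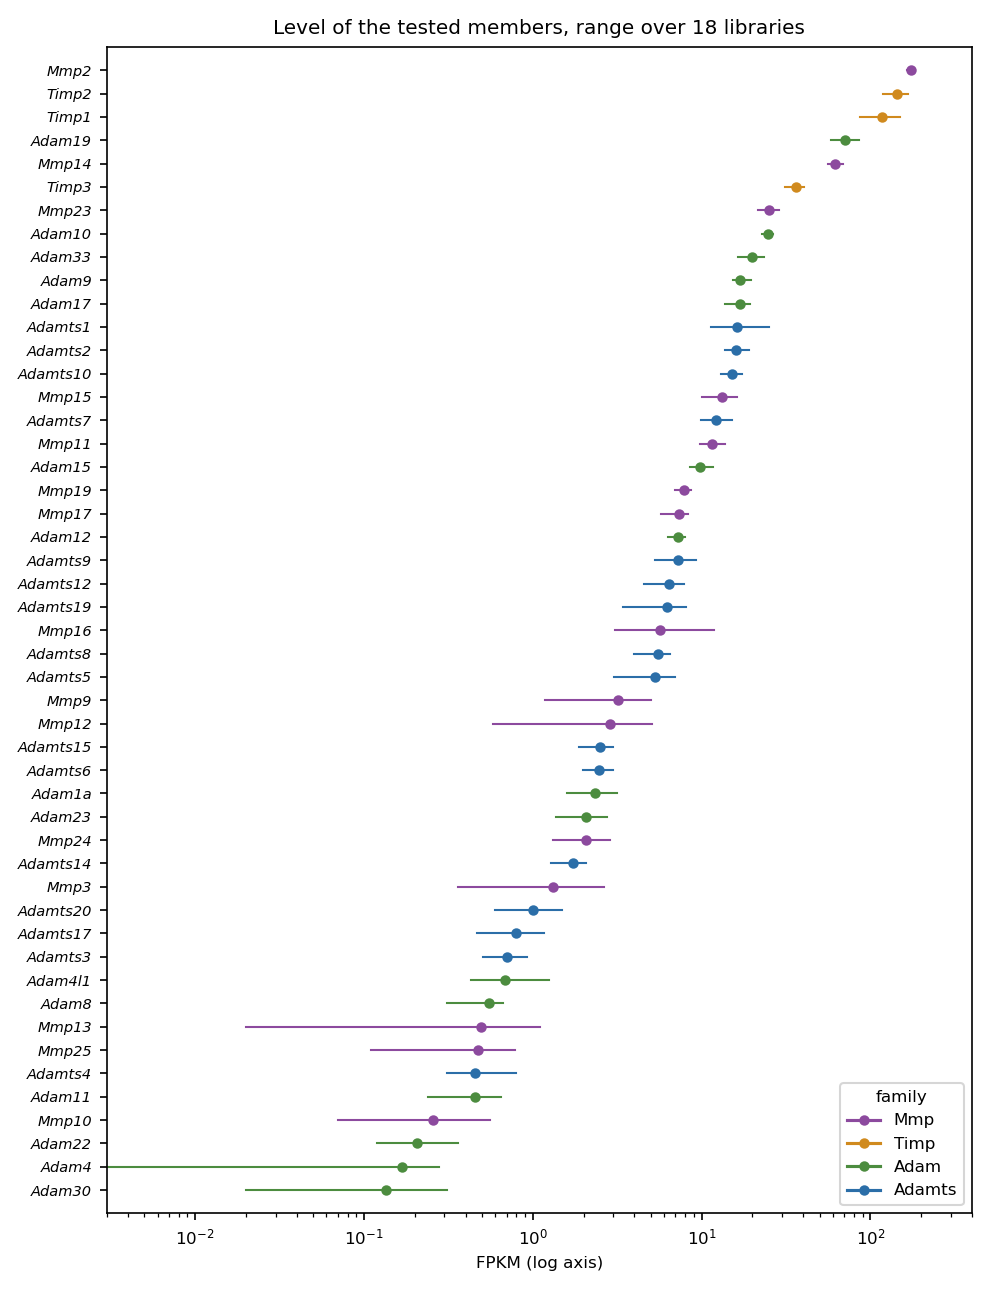
FPKM of the 49 tested genes on a log axis, with the mean (point) and the range (line) over 18 libraries, coloured by family. Mmp2, Timp2 and Timp1 stand at the top, while Mmp13, Mmp12, Mmp9, Mmp3 and Mmp16 have wider ranges than the genes at similar levels; Adam4 was listed at 0 in at least 1 library, where its line is cut at the axis limit.

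The 15 untested genes had 1 to 54 counts over all 18 libraries and at most 14 in any library. They were Timp4, Mmp1, Mmp1b, Mmp7, Mmp8, Mmp21, Mmp28, Adam2, Adam3a, Adam18, Adam28, Adam32, Adamts13, Adamts16 and Adamts18, whose highest mean was 0.0733 FPKM. Whether these changed was not detectable at this depth. On build Rnor_6.0, 8 Mmp genes (Mmp13, Mmp12, Mmp1b, Mmp3, Mmp1, Mmp10, Mmp8 and Mmp7) lie within 378 kb of chromosome 8, between positions 5522739 and 5900965. Mmp13, Mmp12, Mmp3 and Mmp10 of this cluster were tested. The annotated intervals of Mmp3 and Mmp1b overlap on opposite strands, and so do those of Timp1 and Timp3 with Syn1 and Syn3. No source used here says whether counting used the strand, so reads in those overlaps are uncertain, as are those of the near copies Adam4 and Adam4l1.

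The first comparison asked what sORF6 virus changed against its control virus. Inducible secreted Mmp genes were lower with sORF6: Mmp13, a collagenase, by 8.63-fold, Mmp12, the macrophage elastase, by 2.83-fold, Mmp9, a gelatinase of inflammatory cells, by 2.73-fold, and Mmp3, a stromelysin, by 2.34-fold. Adam17, the main sheddase of TNF, and Adamts8, a proteoglycanase, were lower by less, and Timp3 and Adamts2, a procollagen N-proteinase, were higher. In all, 8 of the 49 tested genes passed an adjusted p under 0.05 in edgeR's quasi-likelihood test (16.3%, against 3.85% of all 14870 genes tested). Of these 2 were higher (0.968% of all genes) and 6 lower (2.88% of all genes). The median log2 fold change of the 49 was 0.05, against 0.00 for all genes.

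Mmp13 had 0.0582, 0.175 and 0.173 normalised CPM in sORF6 libraries, against 1.90, 0.811 and 0.968 CPM in its controls. These are 7 counts in all against 64, every sORF6 library lying below every control, and counting error alone puts the control-to-sORF6 ratio of 9.11 between 4.18 and 23.6 (exact 95% interval). The log2 fold change was -3.11 ± 0.61 (SE; edgeR adjusted p = 0.00444), but limma on log2(FPKM + 1) gave an adjusted p of 0.0901. Mmp12 had 1.05, 2.16 and 1.39 CPM in sORF6 libraries and 5.69, 3.94 and 3.42 CPM in the controls. The groups did not overlap, with a log2 fold change of -1.50 ± 0.25 (SE; edgeR adjusted p = 0.000721). Mmp9 had 3.78, 3.91 and 3.64 CPM in sORF6 libraries and 10.2, 10.4 and 10.4 CPM in the controls. The libraries of each group lay close together and far from the other group, and the log2 fold change was -1.45 ± 0.17 (SE; edgeR adjusted p = 1.21e-05). Mmp3 had 0.582, 0.993 and 0.750 CPM in sORF6 libraries and 2.13, 1.85 and 1.48 CPM in the controls. Its groups did not overlap either (log2 fold change -1.22 ± 0.24, SE; edgeR adjusted p = 0.00491), and a fit of these 6 libraries alone gave 0.0935. Mmp10, which lies beside Mmp3, had 0.271 ± 0.122 CPM with sORF6 and 0.230 CPM in the controls, and its log2 fold change of 0.23 ± 0.69 did not pass the test.

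**Figure D2:**
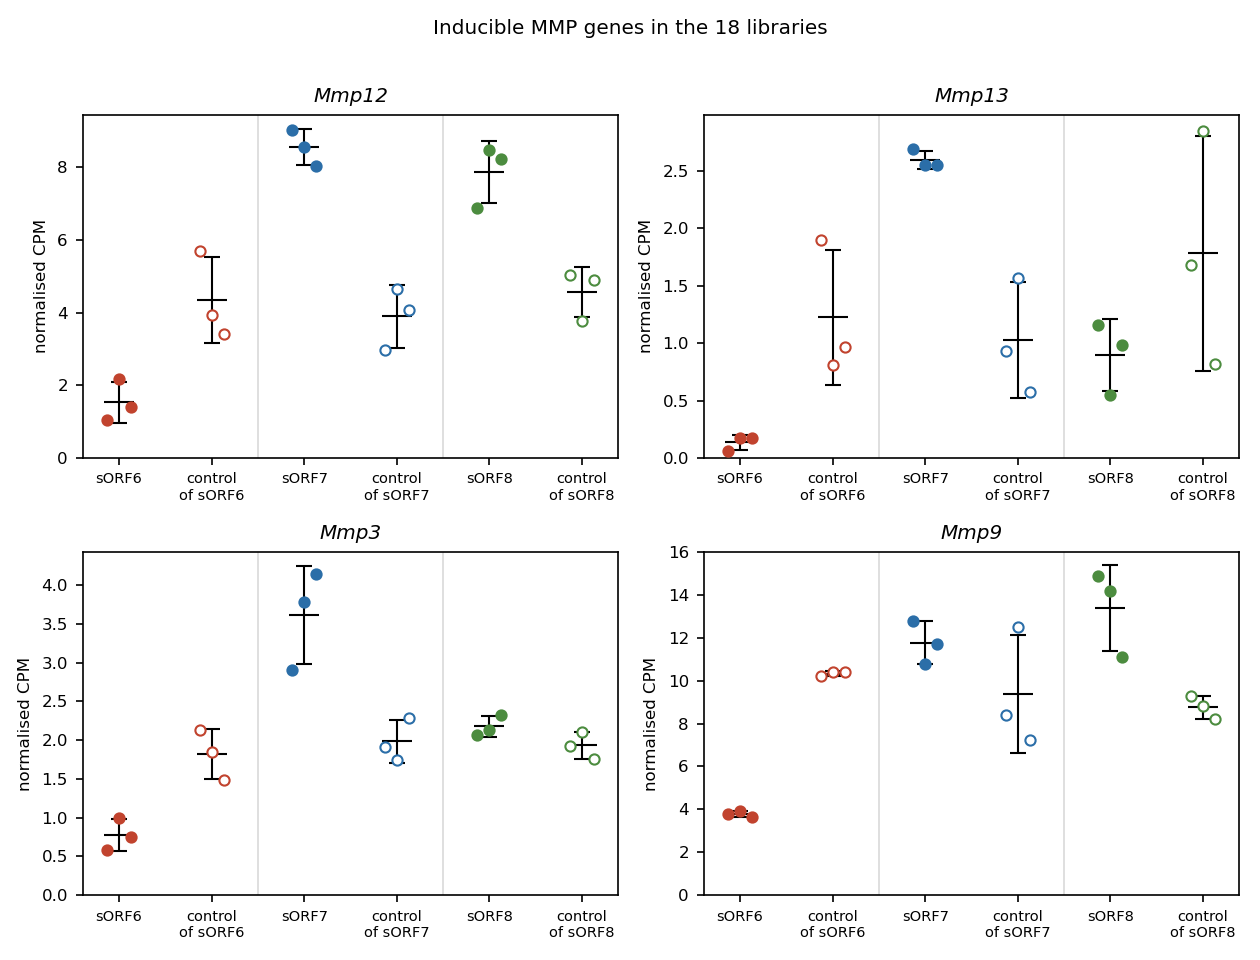
Normalised CPM of Mmp12, Mmp13, Mmp3 and Mmp9 (vertical axes from 0) in the 18 libraries, each sORF group (filled) left of its control virus group (open), with mean and SD in black (n = 3). In all 4 genes the sORF6 libraries lie below their controls, and Mmp12 is higher than its controls with sORF7 and with sORF8.

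Macrophage and leukocyte markers were mixed with sORF6. Their summed level was 125 to 140 CPM with sORF6 and 145 to 166 CPM in the controls, and 2 of 9 tested markers were called, both lower (Itgam -0.83 and Adgre1 -0.61 on the log2 scale). Adgre1 alone had 48.8 CPM with sORF6 and 74.7 CPM in the controls, while Csf1r (0.29), Lyz2 (0.23), Mrc1 (0.26) and C1qa (1.64) had positive values that were not called, and the list's median was -0.04. The part of such cells in the lower Mmp12 and Mmp9 was not tested. Among 20 genes for inducing cytokines and NF-kB signalling 15 were lower and none higher, for example Tnf (log2 fold change -2.23 ± 0.29) and Il1b (-2.13 ± 0.22), with a median of -0.72. Of 34 interferon-stimulated genes 32 were lower and none higher, with a median of -2.21. Both lists were chosen with earlier results of these data known.

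Adam17 had 60.4, 62.4 and 58.1 CPM in sORF6 libraries, against 70.1, 68.1 and 70.8 CPM in the controls. The groups did not overlap, the difference was small (log2 fold change -0.21 ± 0.04, SE; edgeR adjusted p = 0.00453), and a fit of these 6 libraries alone gave 0.0812. Of 20 tested regulators and partners of these enzymes 4 were lower and 1 higher with sORF6. Rhbdf2, which carries the ADAM17 protein to the cell surface, and Furin, which cuts its precursor, were among the lower (-0.35 ± 0.07 and -0.16 ± 0.03), while the ADAM17 partners Rhbdf1 (0.08 ± 0.05) and Frmd8 (-0.06 ± 0.07) were not called. Of 25 tested genes whose products are shed, 9 were lower and 1 higher, with a median of -0.15. Over all genes tested 2.88% were lower and 0.968% higher. Tnf (-2.23 ± 0.29), Cx3cl1 (-0.43 ± 0.05), Cxcl16 (-0.70 ± 0.07) and Tnfrsf1b (-0.62 ± 0.11) were among the lower. The higher was Hbegf (0.24 ± 0.04), a heparin-binding growth factor. Tnf and Icam1 are also on the list of cytokine and NF-kB genes, and Cd44 is counted as lower here and among the regulators, so the lists are not separate. The proteins were not measured.

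Timp3 had 181, 186 and 186 CPM in sORF6 libraries and 161, 153 and 160 CPM in the controls. Every sORF6 library was above every control (log2 fold change 0.22 ± 0.04, SE; edgeR adjusted p = 0.00274), although limma on log2(FPKM + 1) or log2(FPKM + 0.1) did not call it. Timp1 had 64.7, 65.9 and 72.0 CPM with sORF6 and 76.1, 85.5 and 73.5 CPM in the controls. Its groups did not overlap but the log2 fold change of -0.21 ± 0.07 did not pass the test (edgeR adjusted p = 0.128). Timp2 differed by 0.07 ± 0.04 and was not called. Of the summed TIMP FPKM, Timp1 made up 30.9 ± 1.4% with sORF6 and 35.6 ± 1.88% in the controls (SD, n = 3 each), and the ratio of summed Mmp to summed Timp FPKM was 1.10 ± 0.0306 with sORF6 and 1.06 ± 0.0416 in the controls. Adamts2 had 103 ± 4.24 CPM with sORF6 and 90.9 ± 4.23 CPM in the controls (log2 fold change 0.18 ± 0.05, SE; edgeR adjusted p = 0.0387). Adamts8 had 17.3 ± 1.18 CPM with sORF6 and 21.8 ± 0.154 CPM in the controls (-0.34 ± 0.08; edgeR adjusted p = 0.0203). Adamts2 was not called in 5 of 6 and Adamts8 in 4 of 6 fits that left out 1 library, at worst with an adjusted p of 0.215 and 0.131, both without sORF6 replicate 1. Adamts2 was also lost in 6 of 9 other settings, among them no filter, both limma fits and length offsets, with an adjusted p up to 0.298. Fibroblast markers summed to 8860 to 9390 CPM with sORF6 and 7870 to 8690 CPM in the controls. Col1a1, which was not called, made up 5800 and 5260 CPM of these. Of the 10 markers 2 were called higher (Col3a1 0.18 and Ddr2 0.22) and 1 lower (Dcn -0.19), with a list median of 0.07. The part of fibroblasts in the values of Timp3 and Adamts2 was not tested. Of 26 matrix genes that these enzymes act on, 5 were higher and 2 lower, for example Col3a1 (0.18 ± 0.04) and Tnc (-0.24 ± 0.05). The list's median was 0.1, and over all genes tested 0.968% were higher and 2.88% lower. Nid1, among the higher, is also on the list of regulators and partners, and Col3a1 and Dcn are also fibroblast markers.

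The same question was asked of sORF7. With sORF7, Mmp12 and Mmp3 were higher by 2.19-fold and 1.82-fold, Adam17 by 1.14-fold and Adamts1, a proteoglycanase, by 1.13-fold. Mmp24, a membrane-type enzyme known from the nervous system, Adam23, an ADAM without protease activity known for cell adhesion, Adamts2, Adam19 and Adam9, a widely expressed sheddase, were lower. In edgeR's quasi-likelihood test 9 of 49 genes passed (18.4%, against 7.77% of all genes). Of these 4 were higher (4.12% of all genes) and 5 lower (3.66% of all genes), and without sORF7 replicate 1 only 4 genes passed. The median log2 fold change of the 49 was -0.01.

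Mmp12 had 9.03, 8.55 and 8.04 CPM in sORF7 libraries, against 2.96, 4.66 and 4.07 CPM in its controls. Every sORF7 library stood above every control (log2 fold change 1.13 ± 0.21, SE; edgeR adjusted p = 0.00199). Mmp3 had 2.91, 3.79 and 4.14 CPM in sORF7 libraries and 1.91, 1.75 and 2.29 CPM in the controls. The groups did not overlap (0.86 ± 0.21; edgeR adjusted p = 0.0147), yet 3 of 6 fits without 1 library lost the call, at worst 0.0683 without sORF7 replicate 3. A fit of these 6 libraries alone also lost the Mmp3 call. Mmp13 had 2.69, 2.55 and 2.55 CPM in sORF7 libraries and 0.928, 1.57 and 0.573 CPM in the controls. Its groups did not overlap, but the log2 fold change of 1.34 ± 0.42 did not pass the test (edgeR adjusted p = 0.0616). Mmp9 overlapped between the groups, with 12.8, 10.8 and 11.7 CPM in sORF7 libraries and 8.41, 12.5 and 7.22 CPM in the controls, and was not called (edgeR adjusted p = 0.231). Macrophage markers summed to 116 to 122 CPM with sORF7 and 120 to 134 CPM in the controls, with Csf1r (-0.49) and Lyz2 (-0.36) called lower and none higher. Cd14 (0.38), Itgam (0.23) and Cd68 (0.16) had positive values that were not called, and the part of such cells in the higher Mmp12 was not tested. Among the 20 cytokine and NF-kB genes 11 were higher and none lower (median 0.41; Tnf 1.46 ± 0.21), and 33 of 34 interferon-stimulated genes were higher (median 1.01).

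Adam17 had 79.2, 77.4 and 73.9 CPM in sORF7 libraries and 67.7, 67.7 and 66.9 CPM in the controls. The groups did not overlap (log2 fold change 0.19 ± 0.04, SE; edgeR adjusted p = 0.00676), and a fit of these 6 libraries alone gave 0.0700. Rhbdf2 (0.23 ± 0.07; edgeR adjusted p = 0.0514) and Furin (0.02 ± 0.03) were not called with sORF7. Of the 25 genes whose products are shed, 6 were higher and 1 lower with sORF7 (median 0.11), against 4.12% and 3.66% of all genes. Adam19 had 413, 429 and 410 CPM in sORF7 libraries and 492, 491 and 455 CPM in the controls. All 3 sORF7 libraries were lower (-0.20 ± 0.03; edgeR adjusted p = 0.0011), and each fit without 1 library kept the call. Adam9 had 48.0 ± 0.934 CPM with sORF7 and 55.3 ± 2.57 CPM in the controls (-0.20 ± 0.05; edgeR adjusted p = 0.0227), and Adamts2 had 76.0 ± 2.98 CPM with sORF7 and 87.9 ± 2.97 CPM in the controls (-0.21 ± 0.05; edgeR adjusted p = 0.0108). Mmp24 had 5.74 ± 0.523 CPM with sORF7 and 7.89 ± 0.0848 CPM in the controls (-0.46 ± 0.12; edgeR adjusted p = 0.0240), and Adam23 had 8.48 ± 0.575 CPM with sORF7 and 11.5 ± 1.34 CPM in the controls (-0.43 ± 0.11; edgeR adjusted p = 0.0203). Adamts1 had 68.8 ± 1.17 CPM with sORF7 and 60.7 CPM in the controls (0.18 ± 0.05; edgeR adjusted p = 0.0479). Leaving out 1 library lost the call of Adam9 in 4, Adamts2 in 2, Mmp24 in 5, Adam23 in 3 and Adamts1 in 5 of 6 fits, with adjusted p up to 0.109, 0.0598, 0.102, 0.121 and 0.145. A fit of these 6 libraries alone lost each of these calls. Both limma fits lost Adam9 and Adamts2, whose adjusted p over the other settings reached 0.0756 and 0.181. Mmp24 was also lost by limma on log2(FPKM + 1), and Adamts1 with no filter.

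Timp3 had 142, 149 and 145 CPM in sORF7 libraries and 165, 162 and 152 CPM in the controls; it was below them without overlap but not called (-0.13 ± 0.04; edgeR adjusted p = 0.0591). Timp1 had 92.6 ± 0.794 CPM with sORF7 and 81.0 CPM in the controls and was not called (0.19 ± 0.07; edgeR adjusted p = 0.112). Of the summed TIMP FPKM, Timp1 made up 42.4 ± 1.79% with sORF7 and 37.3 ± 2.31% in the controls. Fibroblast markers summed to 7640 to 7980 CPM with sORF7 and 8020 to 8930 CPM in the controls, and cardiomyocyte markers to 51100 to 52600 CPM with sORF7 and 57800 to 61200 CPM in the controls. Of the 8 cardiomyocyte markers 3 were called, all lower (Myh7 -0.46, Actn2 -0.22 and Nppa -0.34), and the part of either list in the lower Adam19, Adam9 and Adamts2 was not tested. Of 26 matrix genes 1 was higher (Tnc, 0.20 ± 0.05) and 5 lower, with Eln (elastin) at -0.31 ± 0.06 and Col6a1 at -0.23 ± 0.04. Over all genes tested 4.12% were higher and 3.66% lower.

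**Figure D3:**
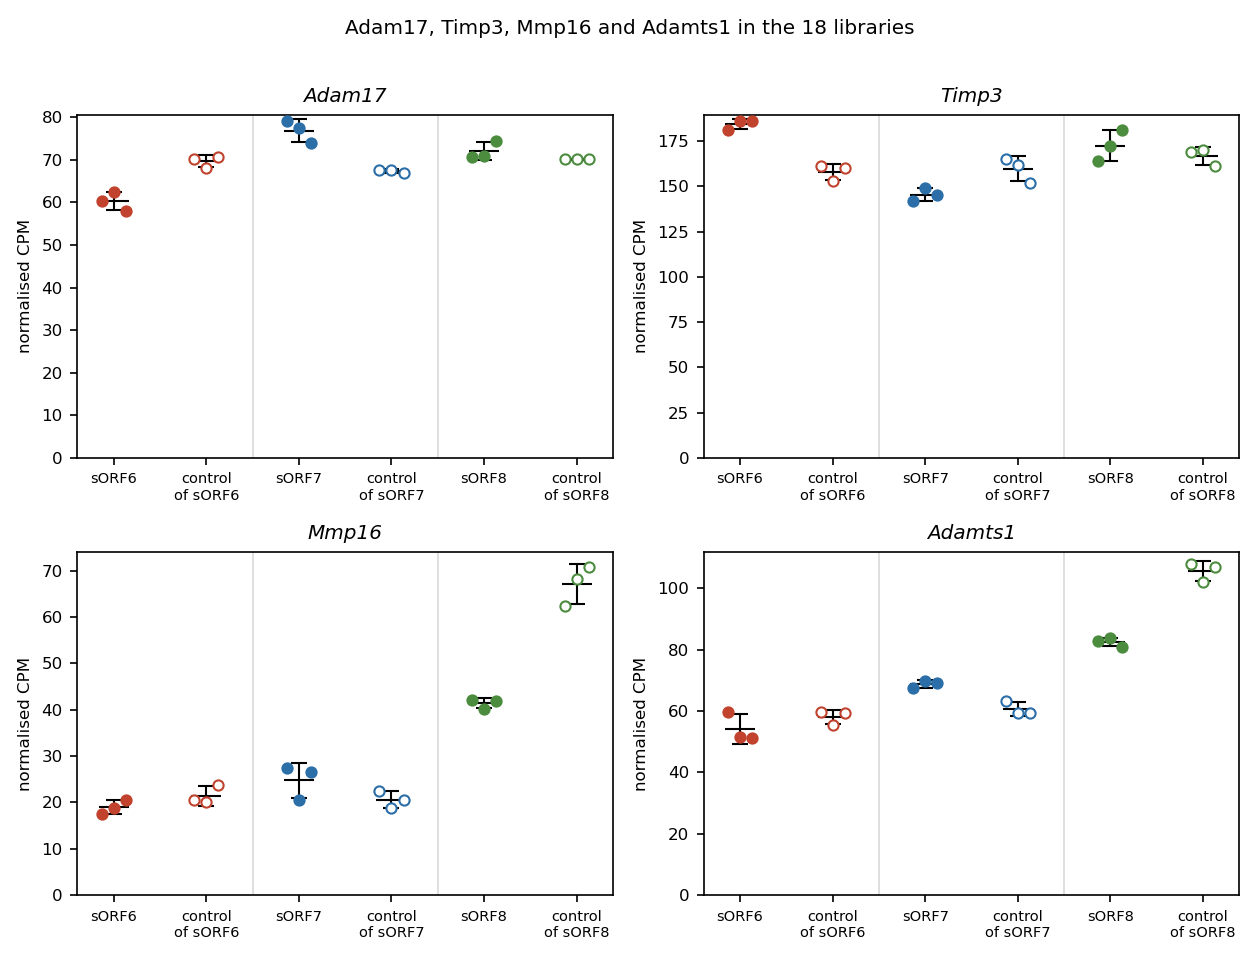
Normalised CPM of Adam17, Timp3, Mmp16 and Adamts1 (vertical axes from 0) in the 18 libraries, each sORF group (filled) left of its control virus group (open), with mean and SD in black (n = 3). Adam17 lies below its controls with sORF6 and above them with sORF7, Timp3 lies above its controls with sORF6, and Mmp16 and Adamts1 lie below their controls with sORF8, whose controls stand above those of the other experiments.

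With sORF8, Mmp16, a membrane-type enzyme that can activate Mmp2, was lower by 1.62-fold and Adamts1 by 1.28-fold, while Mmp12 was higher by 1.72-fold, Mmp9 by 1.53-fold and Adam19 by 1.10-fold. In edgeR's quasi-likelihood test 5 of 49 genes passed (10.2%, against 3.75% of all genes). Of these 3 were higher (2.03% of all genes) and 2 lower (1.72% of all genes). Mmp16 had 42.1, 40.1 and 41.8 CPM in sORF8 libraries, against 62.3, 68.1 and 70.7 CPM in its controls. The sORF8 libraries lay close together and below every control (log2 fold change -0.70 ± 0.09, SE; edgeR adjusted p = 0.000115). Adamts1 had 82.7, 83.7 and 81.0 CPM in sORF8 libraries and 108, 102 and 107 CPM in the controls. Its groups did not overlap (-0.36 ± 0.05; edgeR adjusted p = 0.000477), and both calls held in each fit without 1 library.

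Mmp12 had 6.88, 8.46 and 8.22 CPM in sORF8 libraries and 5.04, 3.78 and 4.89 CPM in the controls. The groups did not overlap (0.78 ± 0.21; edgeR adjusted p = 0.0463), but all 6 fits without 1 library lost the call, at worst 0.177 (0.0986 with a replicate block). Mmp9 had 14.9, 14.2 and 11.1 CPM in sORF8 libraries and 9.27, 8.81 and 8.21 CPM in the controls, and passed (0.61 ± 0.15; edgeR adjusted p = 0.0288), but 5 of 6 fits without 1 library lost it, at worst 0.132 (0.053 with a replicate block). Adam19 had 406, 408 and 402 CPM in sORF8 libraries and 367 CPM in each control. It was called (0.14 ± 0.04; edgeR adjusted p = 0.0257), but in none of the 6 fits without 1 library, at worst 0.107. Mmp13 had 1.16, 0.548 and 0.982 CPM in sORF8 libraries and 1.68, 2.85 and 0.815 CPM in the controls, which overlapped, and it was not called (-0.99 ± 0.45; edgeR adjusted p = 0.268). Without any 1 library 2 or 3 of the 5 calls held, those of Mmp16 and Adamts1 in each fit. Macrophage markers summed to 134 to 171 CPM with sORF8 and 135 to 140 CPM in the controls, none was called, and their part in Mmp12 and Mmp9 was not tested. Cardiomyocyte markers summed to 48000 to 49900 CPM with sORF8 and 39500 to 40000 CPM in the controls, with 5 of 8 called higher, and their part in Mmp16 and Adamts1 was not tested. Of the 20 cytokine and NF-kB genes 4 were higher (Il1b 0.89 ± 0.19), and none of 34 interferon-stimulated genes was called (median 0.16).

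Of the 10 most abundant genes, 7 were called in none of the 3 comparisons (Mmp2, Timp2, Timp1, Mmp14, Mmp23, Adam10 and Adam33), and 3, Adam19, Timp3 and Adam9, in at least 1. Mmp2 had 554 ± 10.7 CPM with sORF6 and 529 CPM in its controls, 517 ± 17.0 CPM with sORF7 and 529 CPM in its controls, and 538 ± 11.5 CPM with sORF8 and 545 CPM in its controls. Its log2 fold changes were 0.07, -0.03 and -0.02, each with an SE of 0.03. Mmp14 had log2 fold changes of 0.06, -0.01 and 0.01 and Adam10, the sheddase of Notch and N-cadherin, of -0.01, 0.01 and 0.09, each with an SE of 0.05. Mmp23 differed by 0.20, -0.07 and 0.02 (sORF6, sORF7, sORF8; SE 0.07 each) and Adam33 by 0.12, 0.10 and 0.14 (SE 0.06 each). Among Mmp11, Mmp15, Adam8, Adam12, Adam15, Adamts4, Adamts5 and Adamts9, none was called, and their log2 fold changes ran from -0.40 to 0.28 with sORF6, -0.16 to 0.49 with sORF7 and -0.06 to 0.33 with sORF8. A p that misses the threshold does not show that levels were equal. The ratio of summed Mmp to summed Timp FPKM lay between 1.01 and 1.18 in all 18 libraries. Over the 3 comparisons 14 of 49 genes were called at least once (28.6%, against 12% of all genes): 1 in all 3 (Mmp12), 6 in 2 and 7 in 1, and 35 in none.

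**Figure D4:**
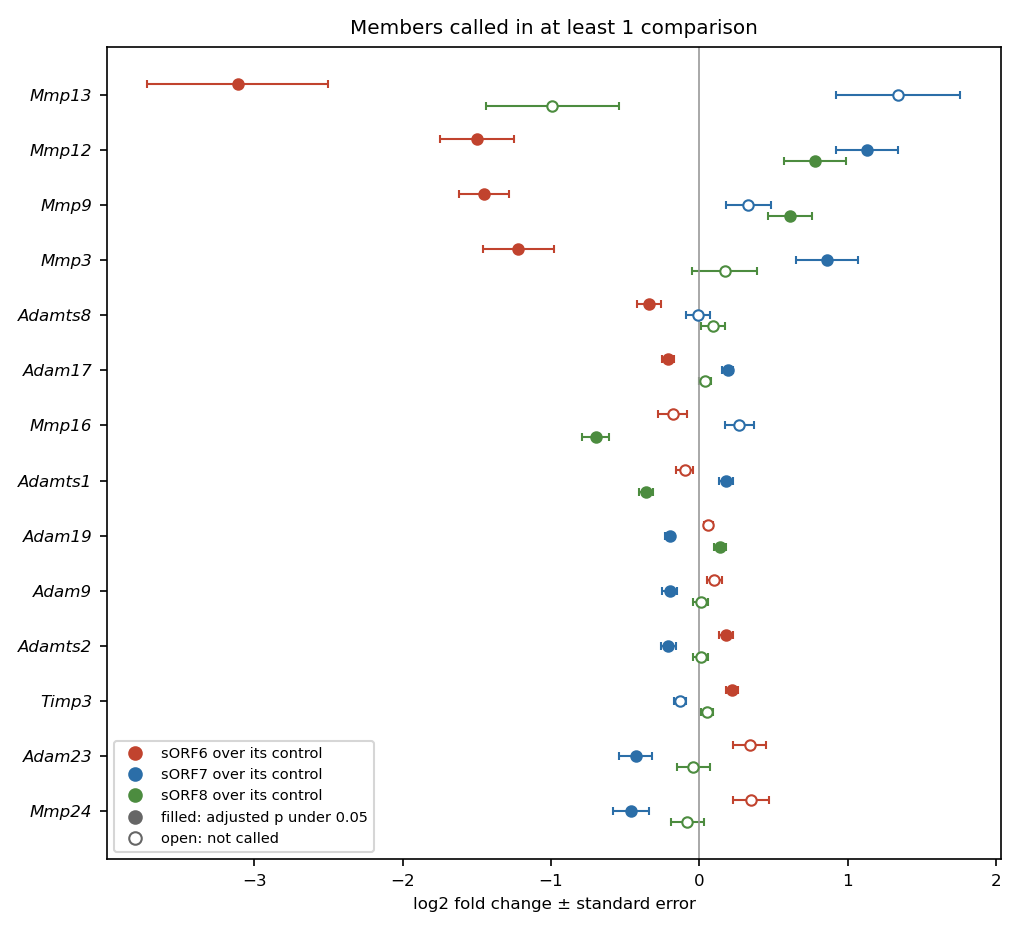
Log2 fold change ± SE of each sORF group over its control virus group for the 14 genes called in at least 1 comparison, filled where the adjusted p was under 0.05. Mmp13 has the widest error and the lowest value (-3.11 with sORF6), and Mmp12 is the 1 gene filled in all 3 comparisons.

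The effects of the sORFs differed from each other in a direct test. The effect of sORF7 minus that of sORF6 was called for 14 of 49 genes (28.6%, against 11.2% of all genes). Mmp13 differed by 4.45 ± 0.75 on the log2 scale, Mmp12 by 2.63 ± 0.32, Mmp3 by 2.09 ± 0.32, Mmp9 by 1.77 ± 0.23 and Adam17 by 0.40 ± 0.06, all higher with sORF7. Timp3 (-0.36 ± 0.06), Adamts2 (-0.39 ± 0.07), Adam23 (-0.78 ± 0.15) and Mmp24 (-0.81 ± 0.17) differed the other way. The effect of sORF8 minus that of sORF6 was called for 6 genes (12.2%, against 3.69% of all genes), with Mmp12 at 2.28 ± 0.32 and Mmp9 at 2.06 ± 0.23. The effect of sORF8 minus that of sORF7 was called for 5 genes (10.2%, against 7.72% of all genes), a share near that of all genes. Among them were Mmp16 at -0.96 ± 0.13, Adamts1 at -0.54 ± 0.08 and Adam19 at 0.34 ± 0.05. These differences set the experiments, each with its own controls, beside each other.

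The 3 control groups were then compared, since they carried no sORF and should show how far the experiments differ. A joint test called 17 of 49 genes (34.7%, against 38.4% of all genes), a share close to that of all genes. Mmp16 had 20.4, 20.0 and 23.8 CPM in the controls of sORF6, 22.5, 18.7 and 20.6 CPM in those of sORF7, and 62.3, 68.1 and 70.7 CPM in those of sORF8 (edgeR adjusted p = 3.64e-11). The controls of sORF8 stood apart, and the sORF8 libraries, though lower than their own controls, were above those of the other experiments. Cardiomyocyte markers summed to 39500 to 40000 CPM in the controls of sORF8, against 60900 to 65500 CPM in those of sORF6 and 57800 to 61200 CPM in those of sORF7, and their part in the differences of Mmp16, Adamts1 and Adamts19 was not tested. Adamts1 was also higher in the controls of sORF8 (adjusted p = 2.56e-10). Adamts19, an ADAMTS of unknown substrate, had 18.6, 20.5 and 17.5 CPM in the controls of sORF8, against 37.8, 39.9 and 39.1 CPM in those of sORF6 and 38.3, 41.6 and 38.4 CPM in those of sORF7 (edgeR adjusted p = 5.95e-10). Adam19, Timp2, Timp1, Adamts9, Mmp15, Mmp24, Adamts20, Mmp17, Adamts12, Adamts15, Adamts5, Mmp11, Adam33 and Adamts2 differed between the control groups too, though Adamts2 was lost in 7 of 9 fits without 1 library and by DESeq2, Adam33 in 3 of 9, and Adamts5 and Mmp11 in 1 of 9 each, while Mmp12, Mmp13, Mmp3, Mmp9, Adam17 and Timp3 were not called (edgeR adjusted p 0.687, 0.308, 0.895, 0.466, 0.490 and 0.290). What differed between the experiments besides the virus is not given in the labels. Library totals were lower in the sORF8 experiment, and their part in these differences was not tested.

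**Figure D5:**
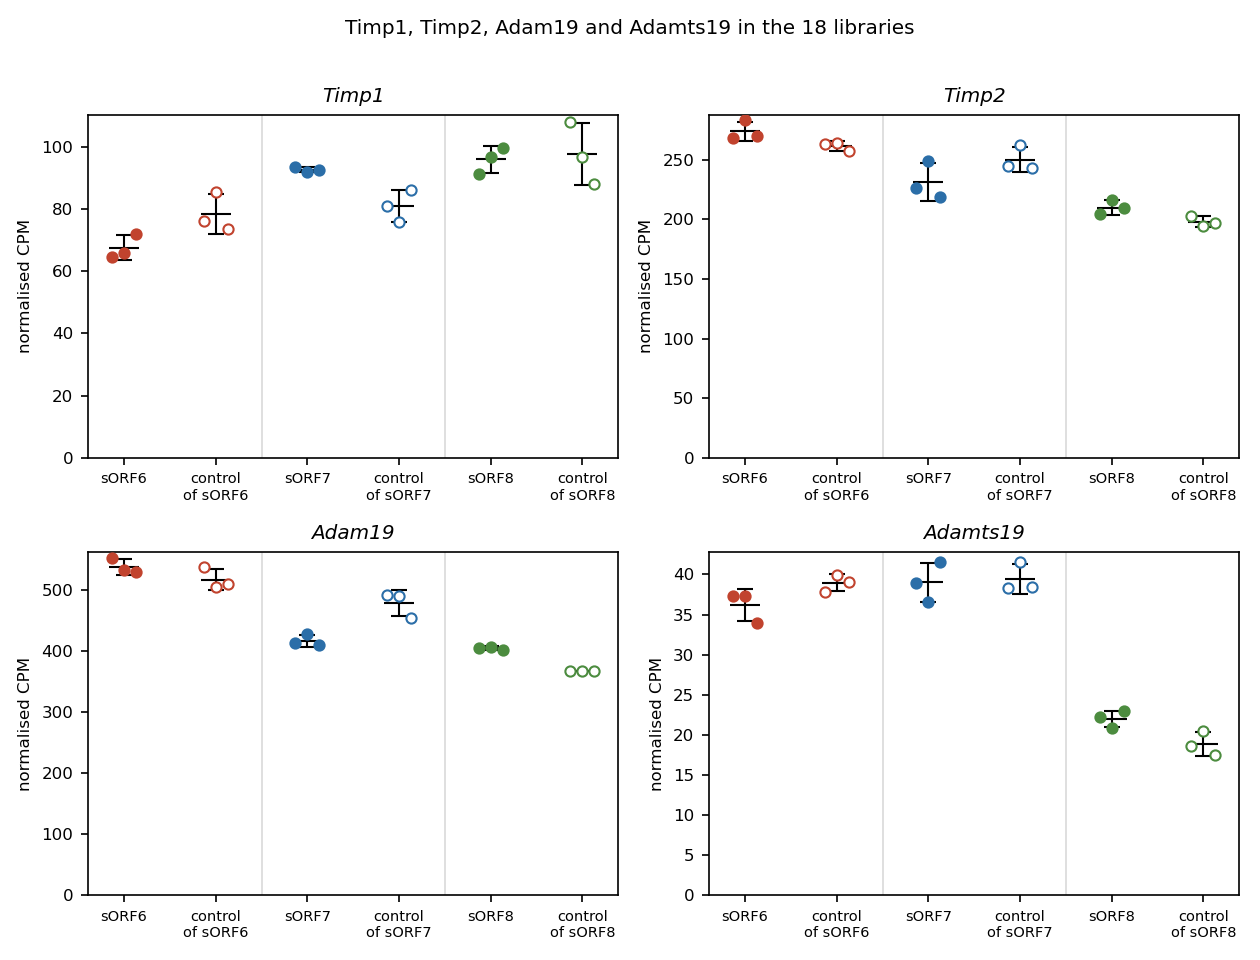
Normalised CPM of Timp1, Timp2, Adam19 and Adamts19 (vertical axes from 0) in the 18 libraries, each sORF group (filled) left of its control virus group (open), with mean and SD in black (n = 3). The sORF8 experiment stands apart from the other experiments in Adamts19 (17.5 to 22.9 CPM in its 6 libraries), and Timp1 was not called against its controls in any comparison.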

How the data were processed

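Gene-level estimated counts and FPKM were deposited by the authors in a single table for all 18 libraries; per the submitters' processing notes, HISAT2 2.0.4, RSEM 1.2.12, DESeq2 1.4.5 and build Rnor_6.0 were used, with no order or role given. The fold, log2 and p-value or q-value columns of the authors' deposited comparisons were not used here. FPKM recomputed from the deposited counts and effective lengths differed by a median of 0.0672% at FPKM of at least 10. Library totals ran from 15697177 to 17658137, and intervals on counts cover counting error only.

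Counts were rounded, normalised by TMM, filtered by group (14870 of 19880 genes) and fitted over all 18 libraries with edgeR 4.0.16 (R 4.3.3), quasi-likelihood, two-sided, Benjamini-Hochberg over all genes, called at adjusted p under 0.05. The fit left 12 residual degrees of freedom, with a common coefficient of biological variation of 6.9%. Differences between sORF effects and a joint test of the 3 control groups came from the same fit. SE is |log2 fold change| divided by the square root of F. The scripts were tested on simulated data.

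The alternatives were DESeq2 1.42.0, RLE size factors, no filter, limma 3.58.1 on log2(FPKM + 1) and log2(FPKM + 0.1), length offsets, a replicate block, each experiment alone, and each library left out. Leaving out 2 control libraries together was added after seeing the data. The named genes were those called in any test, all Timp genes, 19 listed enzymes and the 10 most abundant. Members and lists were chosen with earlier results of these data known.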

Additional observations from a re-analysis of the deposited data

Results flagged for a closer look

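Differences between sORF effects that passed the test across all genes (edgeR's quasi-likelihood test) are listed here on the log2 scale, as the effect of the first sORF over its own controls minus that of the second.

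For sORF7 minus sORF6, Mmp13 differed by 4.45, Mmp12 by 2.63, Mmp3 by 2.09 and Mmp9 by 1.77. Timp1 differed by 0.41, Adam17 by 0.40 and Adamts1 by 0.29. In the other direction Adam19 differed by -0.26, Adam9 by -0.31, Timp3 by -0.36 and Adamts2 by -0.39. Adamts20, Adam23 and Mmp24 differed by -0.76, -0.78 and -0.81. Timp1 and Adamts20 were not called in either experiment by itself.

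For sORF8 minus sORF6, Mmp12 differed by 2.28, Mmp9 by 2.06, Mmp3 by 1.4, Adamts8 by 0.43, Adam17 by 0.25 and Mmp16 by -0.52. For sORF8 minus sORF7, Adam19 differed by 0.34, Adamts10 by 0.30, Adamts1 by -0.54, Mmp16 by -0.96 and Mmp13 by -2.33.

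Adamts1 and Adamts20 in sORF7 minus sORF6 were lost in 3 of 12 fits without 1 library each. Mmp3 and Adam17 in sORF8 minus sORF6 were lost in 3 and 2 of 12, with an adjusted p up to 0.0662 and 0.0637. Adamts8 and Mmp16 in sORF8 minus sORF6 were lost in 10 and 9 of 12 fits without 1 library, and Adamts10 in sORF8 minus sORF7 in 9 of 12. Of 8 other settings, 6 lost this Adamts10 call, 4 lost Adamts8 (DESeq2 and both limma fits among them) and 3 lost Mmp16 (both limma fits among them). In sORF7 minus sORF6, 2 of the 8 lost Adamts20, and leaving out 2 control libraries together lost Adam9 (edgeR adjusted p = 0.0633). Mmp13 in sORF8 minus sORF7 was lost in 4 of 12, at worst with an adjusted p of 0.0914 without the sORF8 control replicate 2.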

How the results depend on the processing

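No result of a named gene was reversed under any alternative run. A fit of the 6 libraries of an experiment alone called 5 genes of the families and 318 genes in all for sORF6, and 3 and 627 for sORF7. This fit lost Adam17, Adamts2 and Mmp3 for sORF6. For sORF7 it lost Adam17, Adam23, Adam9, Adamts1, Adamts2, Mmp24 and Mmp3, and of the calls over all 18 libraries it kept only Mmp12 and Adam19. Length offsets called 913 genes in all for sORF8. With each library left out in turn, genes of the families called numbered 6 to 7 for sORF6, 4 to 9 for sORF7 and 2 to 3 for sORF8; genes in all numbered 368 to 529, 680 to 955 and 265 to 387; and the differences of effects called 13 to 16 (sORF7 minus sORF6), 3 to 5 (sORF8 minus sORF6) and 3 to 7 (sORF8 minus sORF7), with 15 to 20 in the test of the control groups. Fewer samples enter these fits; other causes were not tested. Same-numbered libraries correlated weakly, at -0.022 to 0.178 with 2 of 9 pairs over 0.1, yet 6 of 9 sORF libraries correlated best with their own number. These values do not settle whether replicate numbers pair the libraries. With a replicate block, the families had 8 calls with sORF6, 8 with sORF7 and 3 with sORF8. This fit lost Adam23 (0.0649) and Adamts1 (0.0625) and gained Mmp16 (0.0329) for sORF7, and lost Mmp12 (0.0986) and Mmp9 (0.053) for sORF8. It lost Adam17 (0.0632) and Mmp3 (0.0555) in sORF8 minus sORF6, and Adamts10 (0.0676) and Mmp13 (0.058) in sORF8 minus sORF7. It gained Mmp16 (0.0106) and Timp2 (0.0397) in sORF7 minus sORF6, and Timp2 (0.0391) in sORF8 minus sORF7. A further alternative was chosen after seeing the data: 2 control libraries that an earlier account of these data named, sORF6 control replicate 2 and sORF7 control replicate 1, were left out together. Their spread around the other libraries of their group (SD of log2 CPM 0.259 and 0.267) compares with 0.206 to 0.265 in the rest, so these data do not set them clearly apart. Without them 8 genes of the families were called for sORF6 and 7 for sORF7, with Adamts2 lost and Mmp23 gained for sORF6, and Adam23, Adam9 and Mmp3 lost and Adamts6 gained for sORF7. Depth limits the 15 untested genes and Mmp13, which rests on 7 counts with sORF6.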
